A study of Mus musculus with 4 samples.

Results

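Hsp70 and Hsp90 are ATP-driven chaperones that fold, refold and mature other proteins, and the reads that the RNA-binding protein IGF2BP3 gave on the mRNAs of 10 of their genes in mouse testis are described here. The genes were chosen by name: the Hsp70 genes Hspa1l, Hspa2, Hspa5, Hspa8 and Hspa9, the related Hspa4 and Hspa4l, and the Hsp90 genes Hsp90aa1, Hsp90ab1 and Hsp90b1. A read cluster belonged to a gene when its centre lay inside the gene span of GENCODE M21 on the gene's own strand of mm10. This gave 329 of 337234 clusters in replicate 1 and 279 of 216354 in replicate 2, and 10 of the 14251 genes that held a cluster in both replicates.

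Hsp70 binds short hydrophobic stretches of unfolded proteins and is driven through its ATP cycle by DnaJ co-chaperones and nucleotide exchange factors. Hsp90 acts later, on nearly folded clients such as kinases and steroid receptors, with a set of co-chaperones of its own. Male germ cells carry Hsp70 genes that few other cells use, among them Hspa2, which mouse spermatocytes need to complete meiosis.

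The study crosslinked testes of wild type C57BL/6 mice with UV light, cut the RNA and pulled down IGF2BP3 with an antibody (eCLIP-seq). The mice were 8 weeks old, and the labels give the material as germ cells and somatic cells together. Each of the 2 replicates paired 1 immunoprecipitate (IP) library with 1 size-matched input (SMInput) library, the same lysate sequenced without the antibody, 4 samples in all. The library totals that fit the deposited values are 5133438 IP reads and 8706391 SMInput reads in replicate 1, and 4637612 and 16696122 in replicate 2.

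The deposited tables give, for each cluster of IP reads, a log2(fold change) of IP over SMInput, scaled to the libraries, and the −log10(P value) of that comparison. The fold change is called the log2 ratio here, and a cluster is called a significant peak when both values reach 2. The P value compares the reads of 2 libraries in 1 place, and so does each 95% interval given with a log2 ratio, which covers counting error only. The files list no read numbers. Those given here, IP reads and then SMInput reads of the same replicate, are the whole numbers that return both deposited values of a cluster, and where the −log10(P value) lay between 0 and 400, a single solution existed for 98.9% of clusters in replicate 1 and for 99.2% in replicate 2. CDS stands for the coding sequence and UTR for an untranslated region.

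Markers of the labelled cells were present in both replicates. All 7 germ cell markers examined held clusters in both, and the deepest cluster of the protamine gene Prm1 had 445 IP reads in replicate 1 and 375 in replicate 2. All 4 Leydig cell markers held clusters, with up to 274 and 273 IP reads in 1 cluster of the hormone gene Insl3. The 4 Sertoli cell markers held clusters too, of at most 43 and 69 IP reads in Cldn11. In such whole tissue, fewer cells of a type and less RNA per cell cannot be told apart.

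The 10 genes held 14 significant peaks among 329 clusters in replicate 1, or 4.26%, where 4.92% of all clusters were significant. In replicate 2 they held 12 among 279, or 4.30%, where 13.2% of all clusters were significant. In coding sequences 3 of 210 clusters of these genes were significant in replicate 1, against 5.28% of all CDS clusters. In replicate 2 the count was 2 of 203, against 7.96%. In 3′UTRs 7 of 49 clusters were significant in replicate 1, against 19.4% of all 3′UTR clusters, and 7 of 38 in replicate 2, against 34.5%. The member share lay close to that of all clusters in the replicate 1 total and below it in the other 5 counts. It lay above in 5′UTRs of replicate 1, with 2 of 19 clusters significant, both in Hspa1l, against 405 of 7956, and below in those of replicate 2, with 0 of 11 against 564 of 6539. Among 5′UTR clusters of replicate 1 with at least 10 IP reads the shares were 11.8% and 11.9%. In introns the member share lay above, all in Hspa4l, with 2 of 44 against 3878 of 197548 in replicate 1. In replicate 2 it was 3 of 22 against 11070 of 102668. With at least 10 IP reads the intron shares were 33.3% of 3 member clusters against 26.3% in replicate 1. In replicate 2 they were 0% of 4 against 21.9%, so the order turned. At that depth the CDS shares were 1.65% against 14.6% in replicate 1 and 1.28% against 15.5% in replicate 2. The 3′UTR shares were 17.1% against 40.7% and 17.9% against 49.2%. No test of the list was made.

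Peaks fell on the same 4 genes in both replicates, Hspa1l, Hspa4, Hspa4l and Hsp90aa1. That is 4 of 10, where 35.2% of all genes with clusters in both replicates had a significant peak in both. In 3 of the 10 the peaks of the replicates overlapped by at least 1 base, a shared site, against 15.1% of all genes. Hspa4 had its peaks in different places, and it left the 4 with P values adjusted over all clusters and with a minimum of 10 IP reads. The other 6 genes, Hspa2, Hspa5, Hspa8, Hspa9, Hsp90ab1 and Hsp90b1, had no significant peak in either replicate, and 5 of them had clusters that passed the P threshold in both replicates with a log2 ratio between 1 and 2. Of all 4795 genes without a significant peak in either replicate 184 did, or 3.84%, in a comparison chosen after the values were seen and not matched for depth.

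**Figure D1:**
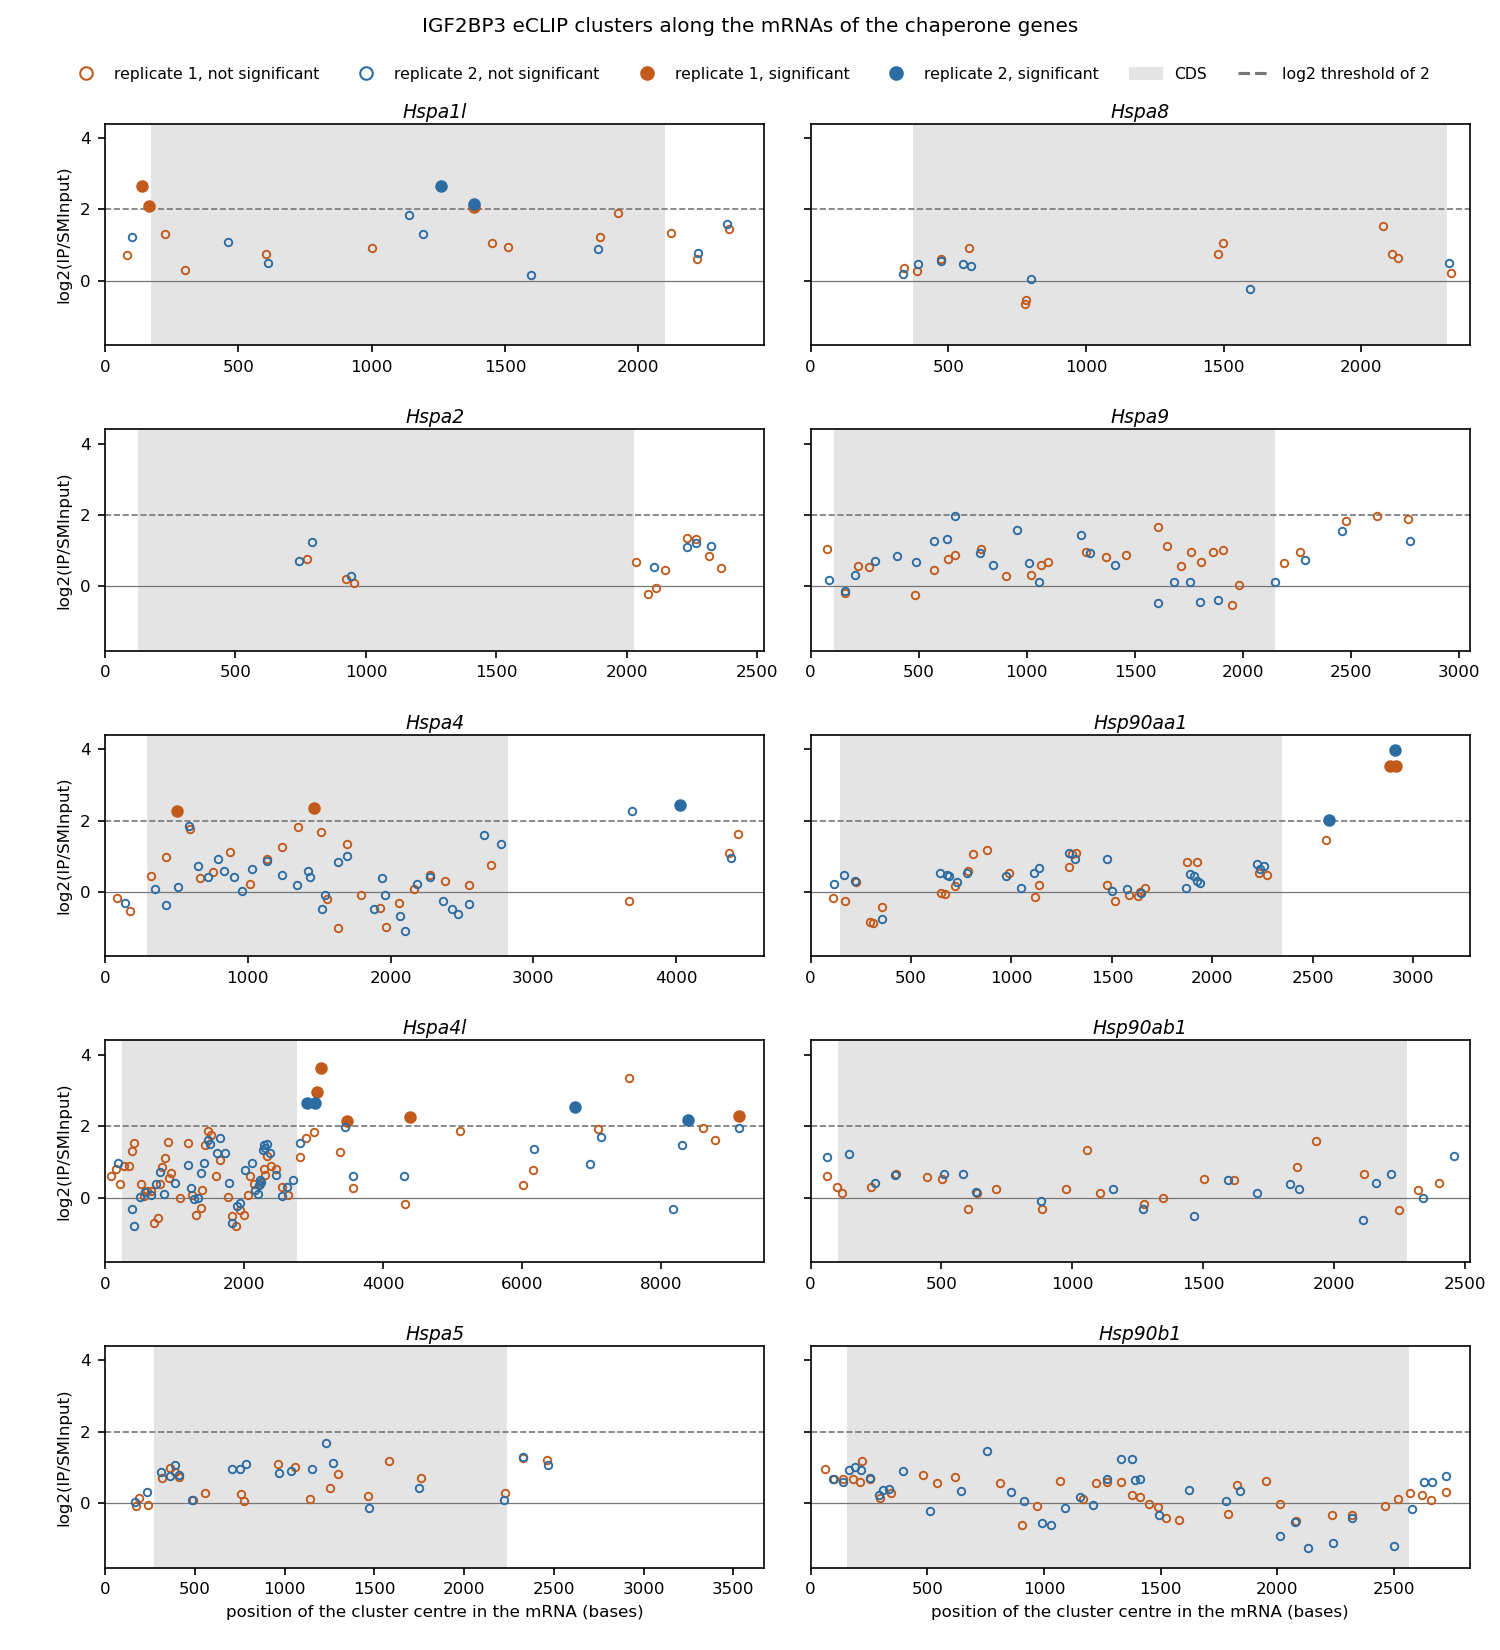
Each point is a cluster at its centre along the mRNA (x axis, bases from the transcript start) with its log2 ratio of IP over SMInput (y axis), in orange for replicate 1 and blue for replicate 2; the CDS is shaded and filled points are significant. The filled points lie in the panels of Hspa1l, Hspa4, Hspa4l and Hsp90aa1, and those of Hsp90aa1 lie past the end of the CDS. Clusters in introns, among them the significant ones of Hspa4l, are not drawn.

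Of the testis Hsp70 genes, Hspa2 had the deepest clusters of the 10 genes and ratios that stayed under the threshold. Its deepest cluster in replicate 1, at chr12:76406504-76406533 in the 3′UTR, had 529 IP reads and 927 SMInput reads at the least, a log2 ratio of −0.05. The 3′UTR cluster around it in replicate 2, chr12:76406446-76406574, had 721 and 1795 reads, a log2 ratio of 0.53. Reads were thus abundant there in IP and SMInput alike. Further along, in clusters centred between 203 and 236 bases after the stop codon, the ratio was higher. At chr12:76406624-76406652 replicate 1 had 170 IP and 113 SMInput reads, a log2 ratio of 1.35 with an upper interval bound of 1.71. At chr12:76406652-76406690 replicate 2 had 186 and 289 reads, a log2 ratio of 1.21 with an interval of 0.94 to 1.48. These were the highest 3′UTR ratios of Hspa2 in their replicates, and both intervals ended below 2.

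Hspa2 is a gene of 1 exon, and its clusters covered 428 of the 2526 mRNA bases in each replicate. Of its 1902 coding bases, clusters lay on 2 stretches in the front part, with 3 clusters in each replicate. The higher of them had a log2 ratio of 0.78 in replicate 1, from 143 and 141 reads, and of 1.24 in replicate 2, from 110 and 168 reads. No cluster centre lay between mRNA base 953 and the stop codon in either replicate, a stretch in which nearly every 31-base word of the mRNA occurs nowhere else in the genome.

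Hspa1l, the Hsp70 gene that is expressed in spermatids, had significant peaks in both replicates, unlike Hspa2. Its shared site lay in the CDS, at bases 1178 to 1243 of 1926 in replicate 1. Replicate 1 had 32 IP reads and 13 SMInput reads at chr17:34978164-34978229, a log2 ratio of 2.06 with an interval of 1.09 to 3.12. Replicate 2 had 37 and 30 reads at chr17:34978155-34978236, a log2 ratio of 2.15 with an interval of 1.42 to 2.90. The ratios of the replicates differed by less than either interval is wide, and both intervals reached below the threshold of 2.

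Outside that site the replicates called different places of Hspa1l. In replicate 1 the 5′UTR cluster at chr17:34972821-34972862 had 30 and 8 reads, a log2 ratio of 2.67, while the wider cluster of replicate 2 at chr17:34972749-34972855 had 45 and 69, a log2 ratio of 1.23. A cluster of 7 bases at the start of the second exon, chr17:34976974-34976980, was significant in replicate 1 from 15 and 6 reads. Another of 7 bases, chr17:34978071-34978077, was significant in replicate 2 from 14 and 8 reads, and neither overlapped a cluster of the other replicate. In the 3′UTR, 373 bases long, the last cluster had a log2 ratio of 1.46 in replicate 1, from 34 and 21 reads, and of 1.60 in replicate 2, from 63 and 75 reads. Over all clusters of the gene the median log2 ratio was 1.24 in replicate 1 and 1.23 in replicate 2, the highest median of the 10 genes in replicate 2 and below that of Hspa4 in replicate 1, where 22 of the 52 Hspa4 clusters were intronic, with a median of 2.76 against 0.48 in its CDS.

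Hspa4 and Hspa4l encode Hsp110-type relatives of Hsp70, which act as nucleotide exchange factors for it, and Hspa4l is expressed strongly in the testis. Hspa4l held the most significant peaks of the 10 genes, 7 of 77 clusters in replicate 1 and 7 of 70 in replicate 2. Its annotated 3′UTR is 6714 bases long, and 5 of the 7 peaks of replicate 1 and 4 of the 7 of replicate 2 lay in it. The others were intronic, with 7 to 10 IP reads each, and none of them overlapped a cluster of the other replicate.

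Of the 3′UTR peaks of Hspa4l, 2 of each replicate were centred within 338 bases of the stop codon. At chr3:40789640-40789702, centred 282 bases after the stop codon, replicate 1 had 37 IP and 8 SMInput reads, a log2 ratio of 2.97 with an interval of 1.85 to 4.29. Replicate 2 had 40 and 23 reads at chr3:40789593-40789691, a log2 ratio of 2.65 with an interval of 1.87 to 3.45, and these overlapping peaks form the shared site. Next to it on the 3′ side, at chr3:40789703-40789752, replicate 1 had 29 and 4 reads, a log2 ratio of 3.62. On the 5′ side, at chr3:40789479-40789566, replicate 2 had 52 and 30 reads, a log2 ratio of 2.64, where the overlapping cluster of replicate 1 had a log2 ratio of 1.66. The cluster with 3.62 had no counterpart, since replicate 2 listed no cluster between chr3:40789691 and chr3:40790044.

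A pair of further places in the Hspa4l 3′UTR passed the threshold in 1 replicate and came just under it in the other. In clusters centred 688 to 709 bases after the stop codon the log2 ratio was 2.14 in replicate 1, from 13 and 5 reads, and 1.99 in replicate 2, from 22 and 20 reads. Near the annotated 3′ end, about 6343 bases after the stop codon, it was 2.29 in replicate 1, from 23 and 8 reads, and 1.96 in replicate 2, from 13 and 12 reads. Between them, the peaks at 1615 bases after the stop codon in replicate 1 and at 3997 and 5611 bases in replicate 2 had 14, 8 and 10 IP reads and no overlapping cluster in the other replicate. In the CDS of Hspa4l, 43 clusters of replicate 1 had a median log2 ratio of 0.38 and a highest one of 1.86, and 40 clusters of replicate 2 a median of 0.43 and a highest one of 1.67.

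Hspa4 had fewer reads and peaks that did not recur. In replicate 1 the CDS cluster at chr11:53289068-53289165 had 20 and 7 reads, a log2 ratio of 2.28 with an interval of 0.98 to 3.76, while the cluster at nearly the same bases in replicate 2 had a log2 ratio of 0.13, for which no whole read numbers returned both deposited values. A second CDS cluster, chr11:53272055-53272118, had 12 and 4 reads and a log2 ratio of 2.35 in replicate 1, and the cluster that overlapped it in replicate 2 had 3 and 8 reads and a log2 ratio of 0.43. The 1 peak of replicate 2, chr11:53260378-53260434 in the 3′UTR, rested on 6 and 4 reads. Another 22 clusters of replicate 1 and 3 of replicate 2 lay in introns of Hspa4, with at most 7 and 4 IP reads, and none was significant.

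The Hsp70 genes active in most cells had no significant peak. Hspa5, the Hsp70 of the endoplasmic reticulum, had its steadiest enrichment at the start of the 3′UTR. At chr2:34776127-34776275 replicate 1 had 134 and 95 reads, a log2 ratio of 1.26 with an interval of 0.87 to 1.65, and at chr2:34776146-34776258 replicate 2 had 77 and 112, a log2 ratio of 1.31 with an interval of 0.87 to 1.74. The next 3′UTR cluster had log2 ratios of 1.20 and 1.06. In both replicates these intervals lay above 0 and below 2, a ratio of moderate size from a large number of reads. The CDS clusters of Hspa5 reached 1.20 in replicate 1 and 1.68 in replicate 2, and the 5′UTR clusters lay between −0.07 and 0.31.

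Hspa9, the Hsp70 of the mitochondrial matrix, had its higher 3′UTR ratios in the later clusters. The 3′UTR cluster at chr18:34937936-34938039 had 21 and 10 reads in replicate 1, a log2 ratio of 1.83 with an interval of 0.68 to 3.08, and the one at chr18:34937926-34938082 in replicate 2 had 23 and 28, a log2 ratio of 1.56 with an interval of 0.70 to 2.41. In replicate 1 the last 2 clusters of the 3′UTR had log2 ratios of 1.98 and 1.90, from 7 and 11 IP reads. In replicate 2 the last cluster had 1.26, and a CDS cluster at chr18:34948126-34948180 reached 1.96, from 13 and 12 reads. The interval of that CDS cluster was 0.71 to 3.23, so the depth could not place it on either side of the threshold.

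Hspa8, the constitutive Hsp70 of the cytosol, had the lowest cover of mRNA bases. Its clusters lay on 241 of 2394 mRNA bases in replicate 1 and on 321 in replicate 2, and the deepest exon cluster had 24 IP reads. The CDS log2 ratios ran from −0.65 to 1.54 in replicate 1 and from −0.22 to 0.56 in replicate 2. Of the 18 clusters of replicate 1, 6 fell on small nucleolar RNAs that the introns of Hspa8 carry, Snord14c, Snord14d and Snord14e, and so did 4 of the 13 of replicate 2. Those clusters belong to the gene span and not to the mRNA, and they had more IP reads than its exon clusters, up to 59 in replicate 1 and 44 in replicate 2, with log2 ratios from −0.31 to 0.82.

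Of the Hsp90 genes, Hsp90aa1, the inducible cytosolic form, which is abundant in germ cells, had the highest ratio at a shared site of all 10 genes. The site lay in its 3′UTR, with cluster centres 537 to 566 bases after the stop codon. Replicate 1 listed touching clusters there, chr12:110690957-110690992 and chr12:110690993-110691013, each with 34 IP and 5 SMInput reads, a log2 ratio of 3.53 with an interval of 2.17 to 5.24. Replicate 2 listed 1 cluster, chr12:110690937-110691014, with 26 and 6 reads, a log2 ratio of 3.96 with an interval of 2.65 to 5.53. These intervals lay above 2 in both replicates, which held for no other shared site of the 10 genes. The equal numbers in the touching clusters of replicate 1 mean that reads across a border between clusters may be counted on both sides.

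A second 3′UTR place of Hsp90aa1, nearer the stop codon, was significant in replicate 2 alone. At chr12:110691238-110691378 replicate 2 had 97 and 87 reads, a log2 ratio of 2.01 with an interval of 1.57 to 2.44. At chr12:110691259-110691381 replicate 1 had 82 and 51 reads, a log2 ratio of 1.45 with an interval of 0.93 to 1.98. The intervals overlap, and a difference between the replicates was not tested. Of the 141 bases of the replicate 2 peak, 140 lie in 31-base words that occur elsewhere in the genome, and none of the bases of the shared site do.

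In the CDS of Hsp90aa1 the 27 CDS clusters of replicate 1 had a median log2 ratio of 0.20 and the 26 of replicate 2 a median of 0.46, with a range from −0.86 to 1.18 and from −0.75 to 1.09.

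Hsp90ab1, the constitutive cytosolic form, had no such site. Its 3′UTR clusters had log2 ratios of 0.20 and 0.42 in replicate 1 and of −0.02 and 1.17 in replicate 2, the last from 10 and 16 reads. The highest ratio of the gene was 1.60, in a CDS cluster of replicate 1 at chr17:45568446-45568486 with 25 and 14 reads and no overlapping cluster in replicate 2. The 5′UTR held clusters with log2 ratios of 0.60, from 42 and 47 reads, and 0.29, from 18 and 25 reads, in replicate 1, and 1 cluster over the same bases with 1.15, from 48 and 78 reads, in replicate 2.

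Hsp90b1, the Hsp90 of the endoplasmic reticulum, had the largest share of its mRNA covered, with clusters on 2183 of 2825 mRNA bases in replicate 1 and on 2150 in replicate 2. Of its 40 clusters in each replicate, 12 and 14 had a −log10(P value) of 0, and all of these had a log2 ratio below 0. The highest CDS ratio in replicate 2 was 1.46, at chr10:86701777-86701901, from 49 and 64 reads. The 3′UTR clusters ran from 0.09 to 0.32 in replicate 1 and from −0.15 to 0.75 in replicate 2. In replicate 2, 4 clusters of Hsp90b1 passed the P threshold with a log2 ratio of at least 1, and in replicate 1 a single one did.

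Summed over clusters, the 3′UTR stood above the CDS in some genes and not in others, a comparison chosen after the values were seen. In Hsp90aa1 replicate 1 had 150 IP and 61 SMInput reads over the 180 bases of its 3′UTR clusters, a log2 ratio of 2.06, against 937 and 1352 reads over 1065 bases of CDS clusters, a log2 ratio of 0.23. In replicate 2 the 3′UTR had 123 and 93 reads over 219 bases, a log2 ratio of 2.25, and the CDS 1005 and 2855 over 977 bases, a log2 ratio of 0.34. Hspa4l showed the same order in both replicates. Its 3′UTR clusters had a log2 ratio of 1.54 in replicate 1, from 344 and 201 reads over 923 bases, and its CDS clusters one of 0.49, from 911 and 1102 reads over 2197 bases. In replicate 2 the values were 1.66, from 266 and 304 reads over 922 bases, and 0.62, from 895 and 2103 reads over 1996 bases.

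In these genes, and in no other of the 10, the 95% interval of the 3′UTR lay above that of the CDS in both replicates. The intervals are too narrow where touching clusters share reads, as the 34 IP reads that enter the replicate 1 sum of Hsp90aa1 from each of the touching clusters may. With 1 cluster per group of neighbours within 300 bases, which adds no read of the 3′UTR of Hsp90aa1 more than once but leaves its shared site out, the 3′UTR ratio was 1.45 against −0.12 in replicate 1 and 2.01 against 0.24 in replicate 2, and the intervals again lay apart in both, as they did in Hspa4l. The 3′UTR stood 1.05 above the CDS on the log2 scale in replicate 1 and 1.04 in replicate 2 for Hspa4l, and 1.83 and 1.91 for Hsp90aa1. In Hspa5 the intervals lay apart in replicate 1, with a difference of 0.62, and overlapped in replicate 2, with one of 0.42. With 1 cluster per group the Hspa5 intervals overlapped in replicate 1 too, at 0.49. Hspa4 and Hspa9 also had the higher ratio in the 3′UTR in both replicates, with intervals that overlapped. In Hspa1l, Hspa2, Hspa8 and Hsp90b1 the order turned between the replicates, with differences from −0.33 to 0.25. In Hspa2 this depended on the clusters summed, since with 1 cluster per group the CDS was the higher in both replicates, with differences of −0.83 and −0.70 and intervals apart. In Hsp90ab1 the CDS was higher by less than the intervals in both. Clusters listed with a P value of 1, and those for which no whole numbers returned both deposited values, enter these sums with the lowest read numbers that return their ratio, so places with little enrichment weigh less than their true depth.

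**Figure D2:**
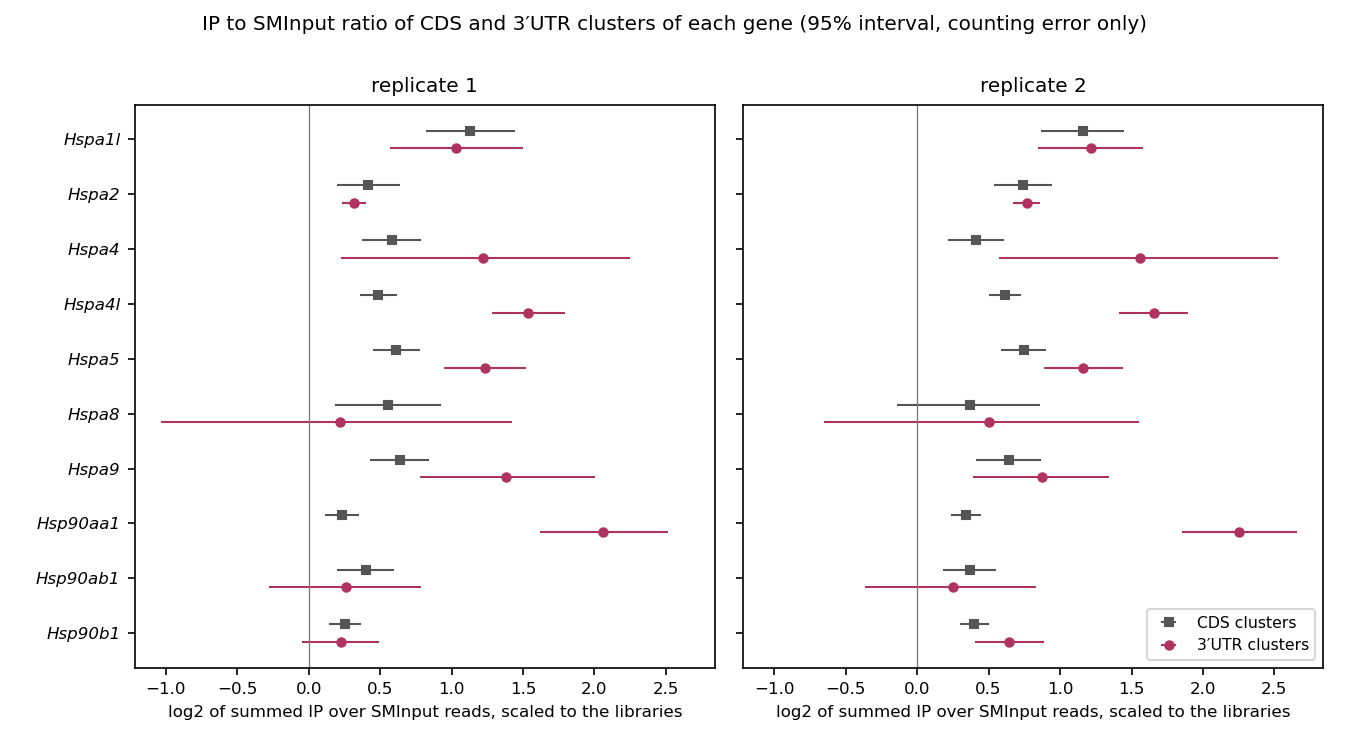
For each gene, the log2 ratio of IP to SMInput reads summed over CDS clusters (grey squares) and over 3′UTR clusters (red circles), with 95% intervals for counting error, on 1 axis per replicate. The red circles of Hspa4l and Hsp90aa1 lie clear of the grey squares in both panels.

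Over all exon clusters, with 1 cluster taken from each group of neighbours within 300 bases, the order of the genes depended on the replicate. The mean log2 ratio of the replicates was 1.01 ± 0.53 (SD, n = 2) in Hspa1l, from 0.64 in replicate 1, below Hspa9, Hspa5 and Hspa4l, and 1.39 in replicate 2, the highest there. With all clusters summed, Hspa1l had 1.15 and 1.19, the highest of the 10 genes in both replicates, so its rank in replicate 1 rests on keeping 1 cluster per group. It was 0.76 ± 0.08 in Hspa9, 0.72 ± 0.03 in Hspa5 and 0.72 ± 0.07 in Hspa4l, which did not differ beyond their spread. Hsp90ab1 had 0.55 ± 0.07, Hspa4 0.53 ± 0.14 and Hspa8 0.44 ± 0.20. Hspa2 had 0.35 ± 0.36, Hsp90b1 0.35 ± 0.17 and Hsp90aa1 0.34 ± 0.26, the lowest in replicate 1, at 0.09, 0.23 and 0.15. In replicate 2 the lowest were Hspa8 at 0.29 and Hspa4 at 0.43.

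Across replicates, 231 exon clusters of replicate 1 overlapped an exon cluster of replicate 2. Their log2 ratios had a Pearson correlation of 0.57 and a Spearman correlation of 0.49, described here without a test, since neighbouring clusters share reads and all points share the same libraries. For the 37 pairs in 3′UTRs the correlations were 0.82 and 0.76, and for the 176 pairs in CDS 0.35 and 0.38. Of the 14 significant peaks of replicate 1, 9 overlapped a cluster of replicate 2 and 4 a significant one, and of the 12 of replicate 2, 5 and 3. The peaks had between 6 and 97 IP reads, with a median of 21.5 in replicate 1 and 12 in replicate 2.

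**Figure D3:**
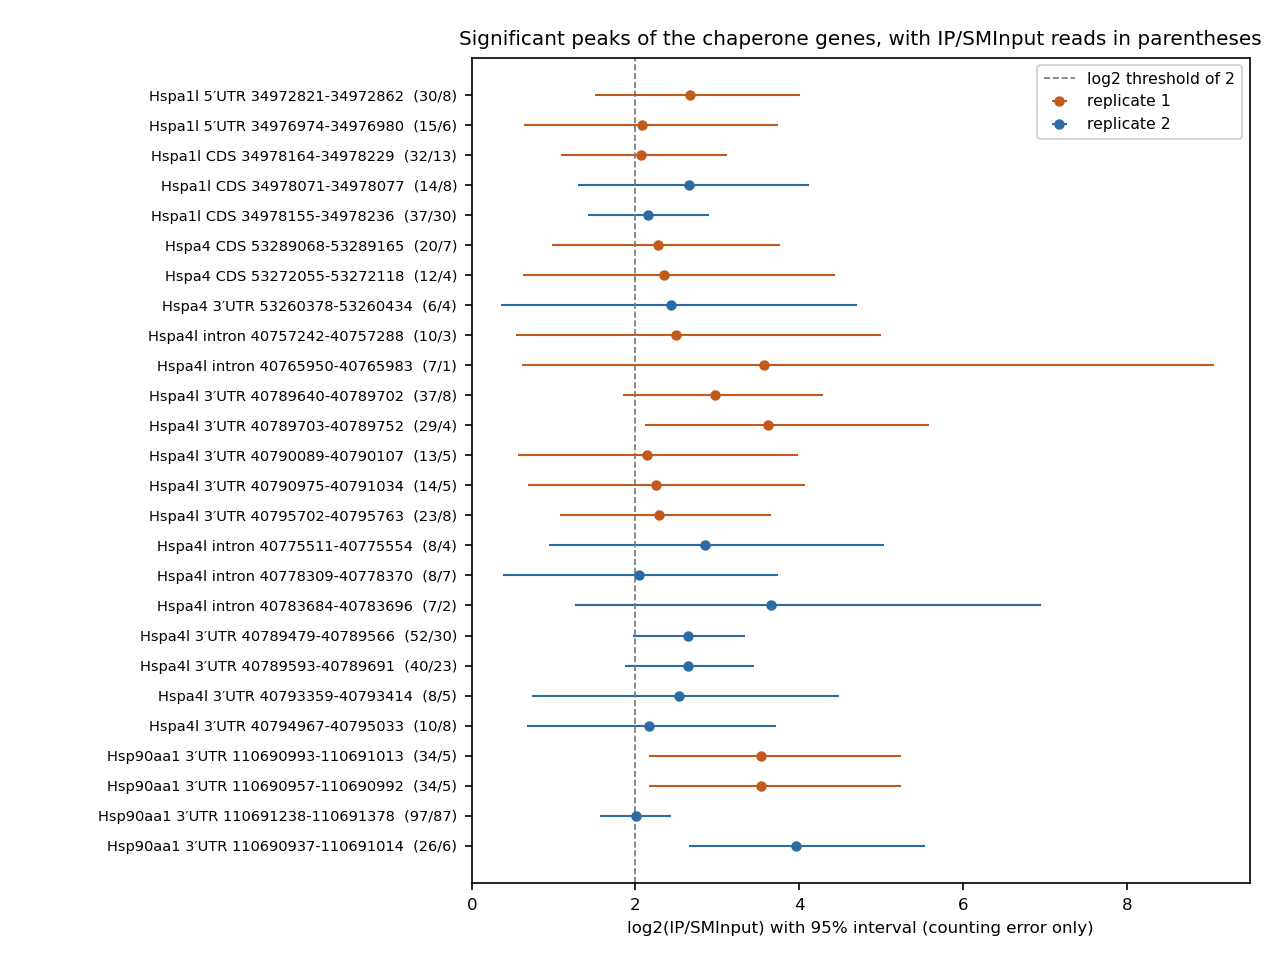
The 26 significant peaks of the 10 genes with their log2 ratio of IP over SMInput (x axis) and 95% interval for counting error, labelled by region, mm10 position, and IP and SMInput reads. The lower bound lies above 2 for both clusters of replicate 1 and the cluster of replicate 2 at the Hsp90aa1 shared site and for 1 cluster of Hspa4l in replicate 1.

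Hsp70 and Hsp90 genes have processed pseudogenes and close relatives, and reads from repeated sequence may be lost or placed elsewhere, so each mRNA was searched for 31-base words that occur elsewhere in the genome. In Hspa8, 80.2% of the words did, and 94.8% of those in the CDS. The pseudogene Gm15459 on chromosome 5 held 1829 of the words, and Gm8355 on chromosome 10 held 1404. In Hsp90aa1 the share was 78.3%, with 2328 words at the pseudogene Gm12346 on chromosome 11 and 1847 at Gm5844 on chromosome 3. Of the repeated bases of Hspa8, clusters covered 11.2% in replicate 1 and 14.5% in replicate 2. Of its unique bases they covered 3.06% and 6.73%. In Hsp90aa1 they covered 43.7% and 41.0% of the repeated bases and 15.6% and 18.4% of the unique ones. In both genes, and in Hspa2, the repeated bases were thus covered more. They were covered less in both replicates in Hspa4l, Hspa5, Hsp90ab1 and Hsp90b1. In Hsp90ab1 the cover was 30.6% and 38.9% of the repeated bases against 56.6% and 47.7% of the unique ones. The order turned between the replicates in Hspa1l and Hspa9, and Hspa4 had no repeated base. The part of the copies in the low cover of Hspa8 was not tested.

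For the other genes the share was smaller. It was 23.5% in Hsp90ab1 and 22.8% in Hspa9, whose copy is the pseudogene Hspa9-ps1 on chromosome X. Hspa1l shared 14.6% of its words, with 356 of them in Hspa1a and 307 in Hspa1b, its neighbours on chromosome 17, and the shared words lie in the CDS. The Hspa1l peak of replicate 1 at the shared site has no base in such a word, and that of replicate 2 has 5 of 82. In Hsp90b1 3.69% of the words were repeated, in Hspa4l 2.12%, in Hspa2 0.441%, in Hspa5 0.412% and in Hspa4 none. Every significant peak of Hspa4 and every exon peak of Hspa4l lay wholly in words found nowhere else.

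The sequences of the shared sites show what IGF2BP3 was enriched on, and the capitals mark the letters searched for. On the strand of the gene these were GAACA and also AAACC, both taken from the study, then GGAC and the longer word TGGAC that contains it, and lastly CATA together with CATC or with CATT. The Hspa1l line gives the bases common to the peaks of both replicates, chr17:34978164-34978229, plus strand, mm10. The Hspa4l line gives the middle 30 of the common bases, chr3:40789650-40789679, plus strand. The Hsp90aa1 line gives the middle 30 bases of 1 of the touching clusters of replicate 1, chr12:110690959-110690988, minus strand, all of them inside the replicate 2 peak.
Hspa1l: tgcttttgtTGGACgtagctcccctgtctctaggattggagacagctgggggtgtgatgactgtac
Hspa4l: tccactgtagtcacagcttctacttgCATA
Hsp90aa1: cacacaCATTtgatcCATAaaaattacact
The Hspa1l stretch is 53.0% G and C and holds TGGAC. The Hsp90aa1 stretch is 30% G and C and holds CATT and CATA, and the Hspa4l stretch is 43.3% G and C and ends in CATA.

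In windows of 100 bases around the cluster centre, CATT was found at 6 of the 7 significant 3′UTR peaks of the members in replicate 1 and at 4 of 7 in replicate 2. Of all 3′UTR clusters, 37.8% and 37.3% had it, and of all members' 3′UTR clusters 51.0% and 52.6%. CATA was found at 4 and 5 of the 7 peaks, against 23.0% and 21.8% of all 3′UTR clusters and 30.6% and 26.3% of those of the members. CATC was found at 2 of the 7 in each replicate, against 29.2% and 28.6%. GGAC was found at 2 and 3 of the 7, against 24.5% and 23.7%. GAACA was found at none of them, against 8.42% and 7.82%, and AAACC at 2 and 1 of the 7, against 8.34% and 7.63%. Of all significant 3′UTR peaks, CATT was found at 40.8% and 40.0%, CATA at 25.7% and 23.4% and CATC at 31.4% and 28.9%. GGAC was found at 24.9% and 23.3% of them, GAACA at 8.30% and 7.72% and AAACC at 8.71% and 8.47%. The counts depended on the window. Over the significant peaks of all regions, CATT was found at 10 of 14 in replicate 1 and 5 of 12 in replicate 2, at 7 and 2 with a window of 50 bases and at 10 and 9 with one of 200. CATA was found at 7 and 7, at 4 and 4 with 50 bases and at 9 and 8 with 200. CATC was found at 3 and 3, at 2 and 2 with 50 bases and at 8 and 11 with 200. For these counts over all regions no share of all clusters was worked out, and a wider window holds any word more often. With so few peaks, of which several lie side by side in Hspa4l and Hsp90aa1, the counts describe these sites and were not tested.

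Related genes can be compared at matching places. In aligned bases the CDS of Hspa2 was 78.7% identical to that of Hspa1l and 77.7% to that of Hspa8, and that of Hsp90aa1 77.4% to that of Hsp90ab1. The Hspa1l shared site had no counterpart in Hspa2, where no cluster of either replicate lay on the aligned bases. Clusters that were not significant lay on the aligned bases of Hspa5 in replicate 1, with a log2 ratio of 1.20, of Hspa8 in replicate 2, with −0.22, and of Hspa9 in both, with up to 0.89 and 0.59. The highest deep CDS cluster of Hspa2 and one of Hspa5 did fall on matching bases of their coding sequences. The lines below give that stretch, CDS bases 601 to 701 of Hspa2 at chr12:76405134-76405234 and 670 to 770 of Hspa5 at chr2:34774089-34774189, both on the plus strand of mm10, with the 79 identical bases of 101 in capitals.
Hspa2: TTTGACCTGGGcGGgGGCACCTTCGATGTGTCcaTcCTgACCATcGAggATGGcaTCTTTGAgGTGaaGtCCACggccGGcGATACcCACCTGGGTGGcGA
Hspa5: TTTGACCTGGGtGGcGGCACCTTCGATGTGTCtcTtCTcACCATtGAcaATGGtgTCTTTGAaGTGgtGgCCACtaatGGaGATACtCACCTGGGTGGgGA
Hspa2 had a log2 ratio of 0.78 there in replicate 1 and 2 clusters with 0.71 and 1.24 in replicate 2. Hspa5 had 2 clusters with 1.10, from 57 and 45 reads, and 1.03, from 36 and 30 reads, in replicate 1, and 2 clusters with 0.85, from 39 and 78 reads, and 0.90, from 15 and 29 reads, in replicate 2. Hspa9 had clusters there too, with 0.29 in replicate 1 and 0.60 and 1.57 in replicate 2. Hspa1l and Hspa8 had no cluster on the matching bases in either replicate, and none of the clusters was significant. This place was chosen after its values were seen.

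The genes that work with the members were examined in lists, which were not tested. Shares are of the genes with a cluster in both replicates, of which in the whole annotation 35.2% had a significant peak in both replicates and 15.1% a shared site. Of 9 further Hsp70, Hsp110 and Hsp90 family genes, 8 had clusters in both replicates, 2 (25%) had a significant peak in both, and 1 (12.5%) a shared site. That was Hyou1, a nucleotide exchange factor of Hspa5, with 45 and 11 reads in its 3′UTR in replicate 1 and 33 and 29 in replicate 2, log2 ratios of 2.79 and 2.03. The heat-inducible Hspa1a had no cluster in either replicate, and Hspa1b had 3 and 2, of at most 5 and 3 IP reads.

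Of 12 nucleotide exchange factors and other cofactors of Hsp70, 5 (41.7%) had a significant peak in both replicates and 2 (16.7%) a shared site. Bag3 had log2 ratios of 3.76 and 2.50 in its CDS, the first from 8 and 1 reads, and St13, which links Hsp70 to Hsp90, had 2.24 and 2.18 in its 3′UTR. Of 25 Hsp90 co-chaperones, 24 had clusters in both replicates, 7 (29.2%) a significant peak in both and 4 (16.7%) a shared site. Fkbp4 had 105 and 18 reads in its 3′UTR in replicate 1 and 162 and 44 in replicate 2, log2 ratios of 3.31 and 3.73. These Fkbp4 peaks overlapped only at their ends, chr6:128430342-128430359 in replicate 1 and chr6:128430251-128430344 in replicate 2. Ptges3, the co-chaperone p23, had log2 ratios of 2.64 and 3.38. Tomm70a, the import receptor of mitochondria, had 3.48 and 3.07 in its 3′UTR, and Dnaaf2, a dynein assembly factor, had 2.76 and 2.26 in its CDS.

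Of 45 DnaJ genes, whose products bring clients to Hsp70, 44 had clusters in both replicates, 21 (47.7%) a significant peak in both and 13 (29.5%) a shared site. The 5 with the highest ratios were Dnajc19 in an intron, at 4.85 and 5.66, and, in their 3′UTRs, Dnajb9 at 6.72 and 3.92, Dnajc5g at 5.81 and 3.74, Dnaja2 at 3.57 and 3.61 and Dnajc10 at 5.52 and 3.17. Several of these rest on 1 SMInput read in replicate 1, so their ratios are loose. The ratio of Dnajc19 in replicate 2 is loose too, from 14 and 1 reads. Of 11 chaperonin genes, 8 (72.7%) had a significant peak in both and 4 (36.4%) a shared site: Tcp1 at 2.93 and 2.77 and Cct2 at 2.19 and 2.37 in their 3′UTRs, Cct6a at 2.35 and 2.55 in an exon of a transcript annotated as non-coding, and Cct6b at 2.64 and 2.33 in an intron, from 11 and 3 reads and from 7 and 5.

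Of 6 heat shock transcription factor genes, which switch on chaperone genes, 4 had clusters in both replicates, 3 (75%) a significant peak in both and 2 (50%) a shared site. Hsf2 had 136 and 14 reads in its 3′UTR in replicate 1 and 47 and 7 in replicate 2, log2 ratios of 4.04 and 4.60. These Hsf2 peaks overlapped only at their ends, chr10:57512312-57512364 in replicate 1 and chr10:57512261-57512313 in replicate 2. Hsf5, a gene of male germ cells, had 19 significant peaks of 49 clusters in replicate 1 and 22 of 47 in replicate 2, and log2 ratios of 3.08 and 3.20 at its shared site in the CDS. Set beside these, the 10 chaperone genes had 3 shared sites, of which that of Hsp90aa1 had the highest ratios.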

How the data were processed

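The authors made the −log10(P value) of each cluster by a chi-square or Fisher's exact test of its IP reads against its SMInput reads. The authors made the log2(fold change) from the same reads, each divided by the usable reads of its library. Both were used as deposited, with the replicates kept apart. Per the methods of the paper, reads had been trimmed, cleared of ribosomal RNA, aligned to mm10 and collapsed by molecular identifier before clusters were called.

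Read numbers, which the files lack, were worked out from both values; where the −log10(P value) was 0 or no pair returned both values, the lowest pair that returns the ratio was used. Intervals are exact 95% binomial intervals (Clopper-Pearson) of the IP share. Regions follow basic GENCODE M21 transcripts. Motifs were searched in windows of 100 bases, with 50 and 200 as alternatives. All 10 members are named, and of each other list at most 5 genes with a shared site, ranked by the smaller log2 ratio of the pair. Hspa1a, Hspa1b, Prm1, Insl3 and Cldn11 were named after their values were seen. The members and lists were chosen with earlier results of these data known. Python 3.11.15, numpy 2.4.6, pandas 2.3.3, scipy 1.17.1, numba 0.67.0, matplotlib 3.10.9 and biotite 1.4.0 were used.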

Additional observations from a re-analysis of the deposited data

How the results depend on the processing

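The counts depended most on the thresholds. With both thresholds at 3, the significant peaks fell from 14 to 3 in replicate 1 and from 12 to 2 in replicate 2, the genes with a peak in both replicates from 4 to 2 (Hspa4l and Hsp90aa1), and the shared sites from 3 to 1 (Hsp90aa1). Of all clusters 1.18% and 2.42% passed, and of all genes with clusters in both replicates 8.47% passed in both. With a log2 ratio of at least 1, the peaks rose to 47 and 53, the genes to 9 (all but Hspa8) and the shared sites to 16, where 7.24% and 18.4% of all clusters and 40.8% of all genes passed. With P values adjusted over all clusters, 9 peaks were left in replicate 1, and with at least 10 IP reads, 7 in replicate 2. No share over the clusters of all regions, or over all genes, was worked out for these settings. Nor was one worked out for shared sites at the other thresholds, so these counts describe the members alone. The causes were not tested beyond what these settings themselves change. The other gene rules and joined sites left the counts within 1.5 times their value, and leaving out either replicate gave 4 genes. With adjusted P values, or at least 10 IP reads, 3 of the 4 genes were left, without Hspa4. Under other windows 13 motif counts moved and 15 did not. The share of peaks in 3′UTRs was 50% in replicate 1, with an interval of 23.0% to 77.0%, and 41.7% with joined sites. In replicate 2 it was 58.3% in every setting, with an interval of 27.7% to 84.8%. Of all significant peaks, 43.2% in replicate 1 and 36.6% in replicate 2 lay in 3′UTRs, inside the interval of that replicate. The 3′UTR to CDS difference, with 1 cluster per group, an alternative chosen after seeing the data, moved from 1.04 to 1.18 in Hspa4l and from 1.87 to 1.66 in Hsp90aa1. Depth limits single sites, since 1 significant peak of replicate 1 and 5 of replicate 2 had fewer than 10 IP reads.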
